A study of Mus musculus with 16 samples.

Results

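Intermediate filament transcripts were followed in mouse hearts that lack carnitine palmitoyltransferase 2 (CPT2), with keratins 8 and 18 at the centre. The 7 genes were Krt8, Krt18, Des, Vim, Synm, Nes and Lmna, matched by symbol in both deposited count tables. They are 7 of 14138 genes in the first table and 7 of 17831 genes in the second, and all 7 passed the low-count filter in each. They were chosen with the values of the CPT2H-KO against wild type comparison known, so their levels there are given as a description with no test.

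CPT2 is an inner mitochondrial membrane enzyme needed for long-chain fatty acid oxidation, and USP30 is a mitochondrial deubiquitinase that opposes mitophagy. The first table holds 5 CPT2H-KO hearts, with CPT2 deleted in cardiomyocytes, and 5 wild type hearts. The second holds 3 CPT2/USP30 double KO hearts and 3 CPT2 single KO hearts, so both of its groups lack CPT2 and it has no wild type group. The design text names Myh6-Cre with floxed USP30 for the cardiac USP30 deletion. No label or design text used here gives the driver of the CPT2 deletion, the ages or the strains. Every library was total RNA of heart, so cells other than cardiomyocytes keep their alleles and contribute reads. In such bulk RNA, fewer cells of a type and less RNA per cell cannot be told apart.

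Intermediate filaments are rope-like polymers that give cells mechanical strength and position organelles. Desmin is the main one of cardiac muscle, where it links Z-discs to each other, to mitochondria, to the nucleus and to the cell membrane. Keratins 8 and 18 pair with each other in simple epithelia and in the mesothelium that covers the heart, and vimentin is typical of fibroblasts and endothelium. Lamins A and C, both products of Lmna, line the inside of the nuclear envelope.

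Library totals were 54674422 to 131049342 counts for CPT2H-KO and 55905339 to 132762776 for wild type hearts. They were 11779115 to 12734379 for double KO and 11067969 to 13532716 for single KO hearts. Levels are given as CPM, counts scaled to a library's total after TMM adjustment of that total. Where the labels differ, the targeted transcripts went with them. Cpt2 stood at 30.4 to 44.9 CPM in CPT2H-KO and 53.0 to 89.9 CPM in wild type hearts. Cpt2 was at 166 to 189 CPM in double KO and 164 to 182 CPM in single KO hearts, where both groups carry its deletion and no wild type library is there to set it against. Usp30 was at 7.45 to 10.4 CPM in double KO and 18.5 to 22.8 CPM in single KO hearts. Summed cardiomyocyte markers were at 50981 to 59151 CPM in CPT2H-KO, 56563 to 63731 CPM in wild type, 82207 to 115606 CPM in double KO and 85361 to 91746 CPM in single KO hearts. Libraries of the first replicate number stood apart for several of the 7 genes. In CPM, CPT2H-KO replicate 1 held the highest CPT2H-KO value of 5 genes, and double KO replicate 1 held the highest double KO value of 6 genes, so fold changes are given with and without them. Nothing in the labels says that these libraries share a batch.

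Krt8 and Krt18 lie side by side on mouse chromosome 15 (GRCm38, GENCODE M21). Krt8, the type II keratin, runs from 101996698 to 102004482 on the minus strand. Krt18, the type I partner, runs from 102028180 to 102032027 on the plus strand. They are transcribed away from each other, with 23697 bases and 0 other annotated genes between them. Des lies at 75360329 to 75368579 on the plus strand of chromosome 1, and is shown for comparison as the filament gene with the highest level. The stretches below, from RefSeq on GRCm38.p6, end where the annotated gene begins or at the RefSeq start, and show whether this keratin pair and desmin share promoter elements. Capitals mark E-boxes (CANNTG) and GC boxes (GGGCGG), searched on both strands. The Krt8 stretch is chr15:102004483-102004592 (minus strand), the Krt18 stretch is chr15:102027966-102028179 (plus strand) and the Des stretch is chr1:75360042-75360291 (plus strand).
Krt8: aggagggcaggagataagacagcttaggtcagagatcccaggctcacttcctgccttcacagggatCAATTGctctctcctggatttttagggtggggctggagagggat
Krt18: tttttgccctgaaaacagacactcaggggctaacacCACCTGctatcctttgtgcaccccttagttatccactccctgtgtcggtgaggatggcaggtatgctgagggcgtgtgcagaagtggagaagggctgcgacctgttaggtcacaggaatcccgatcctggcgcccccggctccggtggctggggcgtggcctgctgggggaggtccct
Des: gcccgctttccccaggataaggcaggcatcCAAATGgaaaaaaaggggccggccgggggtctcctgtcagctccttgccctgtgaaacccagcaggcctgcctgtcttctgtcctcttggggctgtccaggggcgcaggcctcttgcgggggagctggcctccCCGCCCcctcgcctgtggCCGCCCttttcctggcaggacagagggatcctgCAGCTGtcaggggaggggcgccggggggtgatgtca

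The printed Krt8 and Krt18 stretches hold 1 E-box each and no GC box, while that of Des holds 2 E-boxes and 2 GC boxes. Over the full RefSeq windows, 250 bases before to 50 after each start, E-boxes were found 3 times at Krt8, once at Krt18, 2 times at Des, once at Synm and not at Vim, Nes or Lmna. Of all 32851 windows of this length, 72.3% hold an E-box and 35.7% a GC box. Only Krt8 and Vim among the 7 hold the letters TATAAA, which 13.6% of all windows hold. In Krt8 the match overlaps the start itself, while in Vim it begins 32 bases before it. CCAAT (37.4% of all windows) was found at Vim, Synm and Lmna, and TGANTCA, the AP-1 letters (7.81%), at Lmna alone, 40 bases after the start. Neither TGATGNAA (3.97%) nor a CArG box (1.63%) was found at any of the 7. All motifs were searched on both strands, and a match is only a run of letters.

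Keratin 18 transcripts were present at a low level in all wild type hearts and higher in every CPT2H-KO heart. Krt18 stood at 42.7, 8.51, 2.36, 2.94 and 4.17 CPM in CPT2H-KO replicates 1 to 5, against 0.581, 0.440, 0.602, 0.591 and 0.463 CPM in wild type replicates 1 to 5. The groups did not overlap, since the lowest CPT2H-KO heart held 116 counts at 2.36 CPM and the highest wild type heart 0.602 CPM. Replicate 1 was far above the other 4 CPT2H-KO hearts, and the highest CPT2H-KO value was 18.1 times the lowest. The mean was 12.1 ± 17.3 CPM in CPT2H-KO and 0.536 ± 0.0777 CPM in wild type hearts (SD, n = 5 each), a fitted log2 fold change of 4.47 (SE 0.83). Without CPT2H-KO replicate 1 the fitted value was 3.05.

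Krt8 stood at 4.66, 1.46, 0.386, 0.393 and 1.12 CPM in CPT2H-KO replicates 1 to 5, against 0.274, 0.357, 0.533, 0.354 and 0.116 CPM in wild type replicates 1 to 5. Here the groups overlapped: CPT2H-KO replicates 3 and 4 lay below wild type replicate 3. The same heart, replicate 1, was highest for both keratins, and replicates 2 and 5 came next for both. Krt8 rested on few reads, with 19 to 236 counts in CPT2H-KO and 7 to 77 counts in wild type libraries. Its mean was 1.60 ± 1.77 CPM in CPT2H-KO and 0.327 ± 0.151 CPM in wild type hearts (SD, n = 5 each), a fitted log2 fold change of 2.23 (SE 0.66). Without CPT2H-KO replicate 1 it was 1.32.

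**Figure D1:**
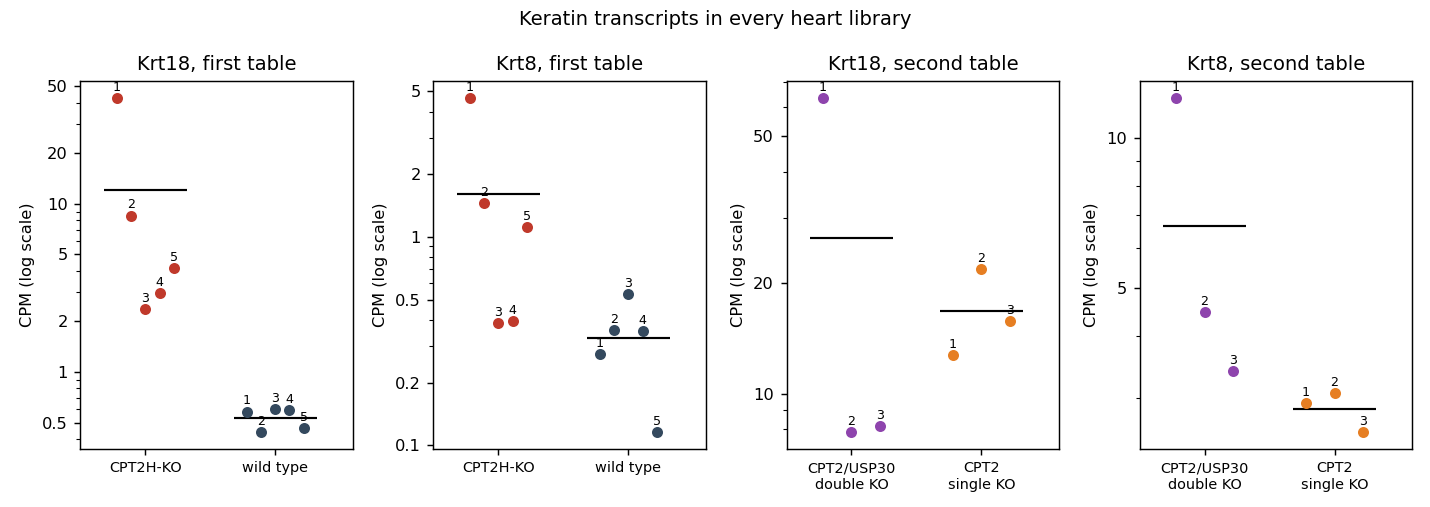
Level of Krt18 and Krt8 (CPM, log axes) in each library, numbered by replicate, with horizontal lines at group means. In the first table all CPT2H-KO hearts lie above all wild type hearts for Krt18 but not for Krt8, and replicate 1 is highest for both; in the second table double KO replicate 1, at 63.5 CPM of Krt18, lies above the other 5 hearts.

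Per kilobase of exon, Krt18 exceeded Krt8 in all 16 hearts. The ratio of Krt18 to Krt8, both in CPM per kilobase, was 12.5, 7.96, 8.32, 10.2 and 5.07 in CPT2H-KO replicates 1 to 5, against 2.90, 1.68, 1.54, 2.28 and 5.45 in wild type replicates 1 to 5. The 4 highest ratios of these 10 hearts were all in CPT2H-KO hearts, and wild type replicate 5, with 7 counts of Krt8, overlapped them at the low end. Both keratins together made up 8.86, 2.59, 0.764, 0.955 and 1.37% of the summed level per kilobase of the 7 genes in CPT2H-KO replicates 1 to 5. In wild type hearts that share was 0.190 to 0.330%. So even in the heart with most keratin, the other 5 genes supplied most of the filament transcripts. Krt8 also overlaps a long noncoding RNA gene, Gm36026, on the opposite strand and has 1 annotated processed copy elsewhere, Krt8-ps. The strand setting of the counting is unknown from the labels, and Krt8 levels are uncertain to that extent.

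Desmin, already the most abundant of the 7, was also higher in every CPT2H-KO heart in CPM. Des stood at 1098, 811, 793, 763 and 787 CPM in CPT2H-KO replicates 1 to 5, against 579, 645, 667, 550.3 and 602 CPM in wild type replicates 1 to 5. In CPM the groups did not overlap, and replicate 1 was again the highest, well apart from the narrow range of the other 4 CPT2H-KO hearts. By library totals alone the groups overlapped. Wild type replicate 3 (96255 of 132762776 counts) then held a larger share than CPT2H-KO replicate 4 (56269 of 82989207). CPT2H-KO replicate 2 (48995 of 54674422) was then above replicate 1 (55564 of 62748001). The mean of Des was 850.4 ± 139 CPM in CPT2H-KO and 609 ± 47.4 CPM in wild type hearts (SD, n = 5 each), a fitted log2 fold change of 0.48 (SE 0.11). Without CPT2H-KO replicate 1 the value was 0.37. Des overlaps the antisense gene Gm15179, whose reads may be included.

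Synemin, a large filament protein that copolymerises with desmin and vimentin and does not form filaments alone, gave a similar fitted change. Synm stood at 8.93, 6.272, 6.96, 6.37 and 6.89 CPM in CPT2H-KO replicates 1 to 5, against 5.58, 6.268, 4.65, 5.03 and 4.81 CPM in wild type replicates 1 to 5. In CPM the groups only just failed to overlap, as CPT2H-KO replicate 2 and wild type replicate 2 were nearly equal. By library totals alone they overlapped. Wild type replicate 2 (527 of 81565117 counts) then held a larger share than CPT2H-KO replicate 4 (470 of 82989207). The fitted log2 fold change was 0.43 (SE 0.12), and 0.33 without CPT2H-KO replicate 1. Synm on chromosome 7 (67730160 to 67759742, minus strand) overlaps Ttc23 on the opposite strand.

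Lamin A/C transcripts were almost constant among wild type hearts. Lmna stood at 63.4, 49.8, 44.4, 45.3 and 50.8 CPM in CPT2H-KO replicates 1 to 5, against 44.3, 45.6, 44.0, 45.7 and 44.3 CPM in wild type replicates 1 to 5. Replicates 1, 2 and 5 of the CPT2H-KO hearts lay above the wild type range, and these were the hearts that were highest for the keratins. The coefficient of variation of Lmna was 15.02% in CPT2H-KO and 1.80% in wild type hearts. Its fitted log2 fold change was 0.18 (SE 0.09), and 0.09 without CPT2H-KO replicate 1.

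Vimentin and nestin overlapped between the groups. Vim stood at 115, 109, 71.5, 85.5 and 117 CPM in CPT2H-KO replicates 1 to 5, against 119, 118, 90.7, 110 and 125 CPM in wild type replicates 1 to 5. Replicates 5, 1 and 2 of the CPT2H-KO hearts were the highest of that group, as they were for the keratins. The fitted log2 fold change was -0.17 (SE 0.14), and -0.23 without CPT2H-KO replicate 1 and -0.08 without CPT2H-KO replicate 3. Nestin is a filament protein of progenitor cells that copolymerises with vimentin. Nes stood at 11.0, 17.3, 26.2, 21.7 and 41.6 CPM in CPT2H-KO replicates 1 to 5, against 15.4, 20.3, 26.9, 26.3 and 30.2 CPM in wild type replicates 1 to 5. Here CPT2H-KO replicate 1 was the lowest of all 10 hearts and replicate 5 the highest, and the fitted log2 fold change was -0.01 (SE 0.30). Its sign rested on single hearts, with 0.17 without CPT2H-KO replicate 1 and -0.32 without CPT2H-KO replicate 5.

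In CPM, 3 of the 7 (Krt18, Des and Synm) had every CPT2H-KO heart above every wild type heart, beside 11.5% of all tested genes. None lay below, where 13.2% did (24.7% in either direction). By library totals alone, only Krt18 of those 3 still had every CPT2H-KO heart above every wild type heart. The fitted log2 fold change was above 0 for 5 of 7, beside 49.1% of all genes. Since the genes were chosen on this comparison, these shares carry no test. The median over the 7 was 0.43, beside -0.01 over all 14123 tested genes. Scaling by library totals alone moved the median of all genes to -0.27. Under it the log2 fold changes were 4.12 for Krt18, 1.92 for Krt8, 0.21 for Des, 0.15 for Synm, -0.09 for Lmna and -0.43 for Vim, so Lmna changed sign while Krt18, Krt8, Des and Synm did not.

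**Figure D2:**
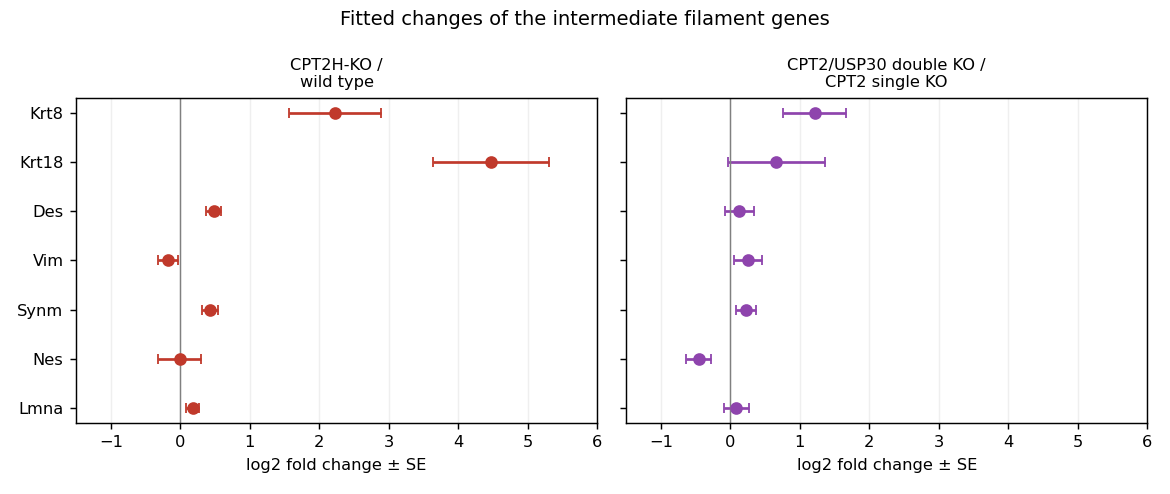
Fitted log2 fold change ± SE of each gene, for CPT2H-KO over wild type (left, n = 5 each, chosen on this contrast) and CPT2/USP30 double KO over CPT2 single KO (right, n = 3 each). Krt18 at 4.47 and Krt8 at 2.23 lie far to the right on the left side, and on the right side the values run from -0.46 for Nes to 1.21 for Krt8.

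Compared per kilobase of exon, the order of levels in wild type hearts was Des, Vim, Lmna, Nes, Synm, Krt18 and Krt8, and no neighbours in that order overlapped. Des averaged 227 ± 37.1 CPM per kilobase in CPT2H-KO and 162 ± 12.6 in wild type hearts, and Vim 21.0 ± 4.24 in CPT2H-KO and 23.7 ± 2.82 in wild type hearts. Krt18 averaged 8.44 ± 12.0 CPM per kilobase in CPT2H-KO hearts, against 0.373 ± 0.0540 in wild type hearts. That mean came mostly from replicate 1, since Krt18 stood at 29.7, 5.92, 1.64, 2.05 and 2.90 CPM per kilobase in CPT2H-KO replicates 1 to 5 and lay below Nes in replicates 3 to 5. Without replicate 1 its mean was 3.13, below Nes at 4.16. In CPT2H-KO hearts its range overlapped those of Vim, Lmna, Nes and Krt8, and in replicate 1 it was above Vim (24.2). Krt8 (0.819 ± 0.905) overlapped Synm (0.893 ± 0.136) and, through replicate 1 at 2.38, Nes. Des made up 80.7 to 87.8% of the summed level per kilobase of the 7 in CPT2H-KO and 80.2 to 84.7% in wild type hearts. By means, the order in double KO hearts was Des, Vim, Lmna, Krt18, Nes, Krt8 and Synm. There Krt18 overlapped Lmna, Nes and Krt8, and Krt8 and Synm overlapped each other. Krt18 was above Nes there in replicate 1 alone, and without that heart the order was Des, Vim, Lmna, Nes, Krt18, Synm and Krt8. In single KO hearts it was Des, Vim, Lmna, Nes, Krt18, Synm and Krt8, where Nes and Krt18 alone overlapped.

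Double against single KO hearts address what the further loss of USP30 does where CPT2 is missing, and there the 7 genes could be tested with edgeR over all 12997 tested genes. None of the 7 passed, and neither did any other gene (0%). Usp30 itself, the deleted gene, was among those that did not pass (log2 fold change -1.16, edgeR adjusted p = 0.147). In simulated counts for this comparison, the test found 4% of altered genes at a log2 change of 0.5. It found 50% at a log2 change of 1 and 94% at 2. The lack of calls therefore cannot decide whether changes of that smaller size were present. At an unadjusted edgeR p under 0.05 there were 942 genes (7.25%), and DESeq2 called 123 and limma-voom 0. Of the 7, 2 had an unadjusted p under 0.05, namely Krt8 and Nes. Values did not overlap between groups for 3 of 7, beside 11.8% of all genes, with Krt8 and Synm higher (6.69% of all genes) and Nes lower (5.07%). The log2 fold change was above 0 for 6 of 7, beside 50.4% of all genes.

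Krt18 stood at 63.5, 7.87 and 8.18 CPM in double KO replicates 1 to 3, against 12.7, 21.7 and 15.8 CPM in single KO replicates 1 to 3. Replicate 1 of the double KO hearts was the highest of the 6 and the other double KO hearts were the lowest, so the groups crossed. The log2 fold change was 0.66 (SE 0.70, 95% interval -0.90 to 2.22, edgeR adjusted p = 0.899). Without double KO replicate 1 it turned to -1.06 (edgeR adjusted p = 0.0862). The direction for Krt18 in this comparison was therefore set by a single heart.

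Krt8 stood at 12.0, 4.47 and 3.40 CPM in double KO replicates 1 to 3, against 2.93, 3.07 and 2.57 CPM in single KO replicates 1 to 3. All double KO hearts were above all single KO hearts, with replicate 1 again the highest. The log2 fold change was 1.21 (SE 0.45, 95% interval 0.20 to 2.22, edgeR adjusted p = 0.563). Without double KO replicate 1 it was 0.46 (edgeR adjusted p = 0.703). The ratio of Krt18 to Krt8 per kilobase was 7.19, 2.40 and 3.28 in double KO replicates 1 to 3, against 5.90, 9.64 and 8.37 in single KO replicates 1 to 3, overlapping through the first replicate of each group.

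Nestin was lower in all double KO hearts. Nes stood at 67.5, 51.3 and 72.6 CPM in double KO replicates 1 to 3, against 103, 84.4 and 75.5 CPM in single KO replicates 1 to 3. The log2 fold change was -0.46 (SE 0.18, 95% interval -0.86 to -0.06, edgeR adjusted p = 0.596). Without double KO replicate 1 it was -0.50 (edgeR adjusted p = 0.331). Beside it, endothelial markers summed to 1137 to 1352 CPM in double KO and 1462 to 1649 CPM in single KO hearts, with no overlap and 9 of 9 tested markers below 0. Proliferation markers summed to 7.70 to 34.9 CPM in double KO and 22.2 to 100.1 CPM in single KO hearts, with 6 of 6 below 0. Their part in the Nes values was not tested. Synm stood at 18.2, 16.8 and 18.1 CPM in double KO replicates 1 to 3, against 15.1, 14.9 and 15.6 CPM in single KO replicates 1 to 3. These groups did not overlap, and both were tight, but the log2 fold change of 0.22 (SE 0.14, 95% interval -0.09 to 0.54) had an edgeR adjusted p of 0.807. Without double KO replicate 1 it was 0.20.

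Desmin, vimentin and lamin A/C overlapped between these groups. Des stood at 4818, 3605 and 2829 CPM in double KO replicates 1 to 3, against 3148, 3835 and 3302 CPM in single KO replicates 1 to 3 (log2 fold change 0.13, SE 0.21, 95% interval -0.35 to 0.61, edgeR adjusted p = 0.944). Vim stood at 556, 341 and 435 CPM in double KO replicates 1 to 3, against 414, 382 and 323 CPM in single KO replicates 1 to 3 (0.25, SE 0.20, 95% interval -0.20 to 0.70, edgeR adjusted p = 0.860). For all 3 genes double KO replicate 1 was the highest heart. Lmna stood at 308, 239 and 206 CPM in double KO replicates 1 to 3, against 241, 257 and 212 CPM in single KO replicates 1 to 3 (0.09, SE 0.18, 95% interval -0.31 to 0.49, edgeR adjusted p = 0.957). Without double KO replicate 1 the log2 fold changes of Des and Lmna were both -0.09, against 0.13 and 0.09 with it, and that of Vim was 0.05. Fibroblast markers, cells that express Vim, summed to 5211 to 6861 CPM in double KO and 3673 to 4637 CPM in single KO hearts, with no overlap, and their part in the Vim values was not tested.

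**Figure D3:**
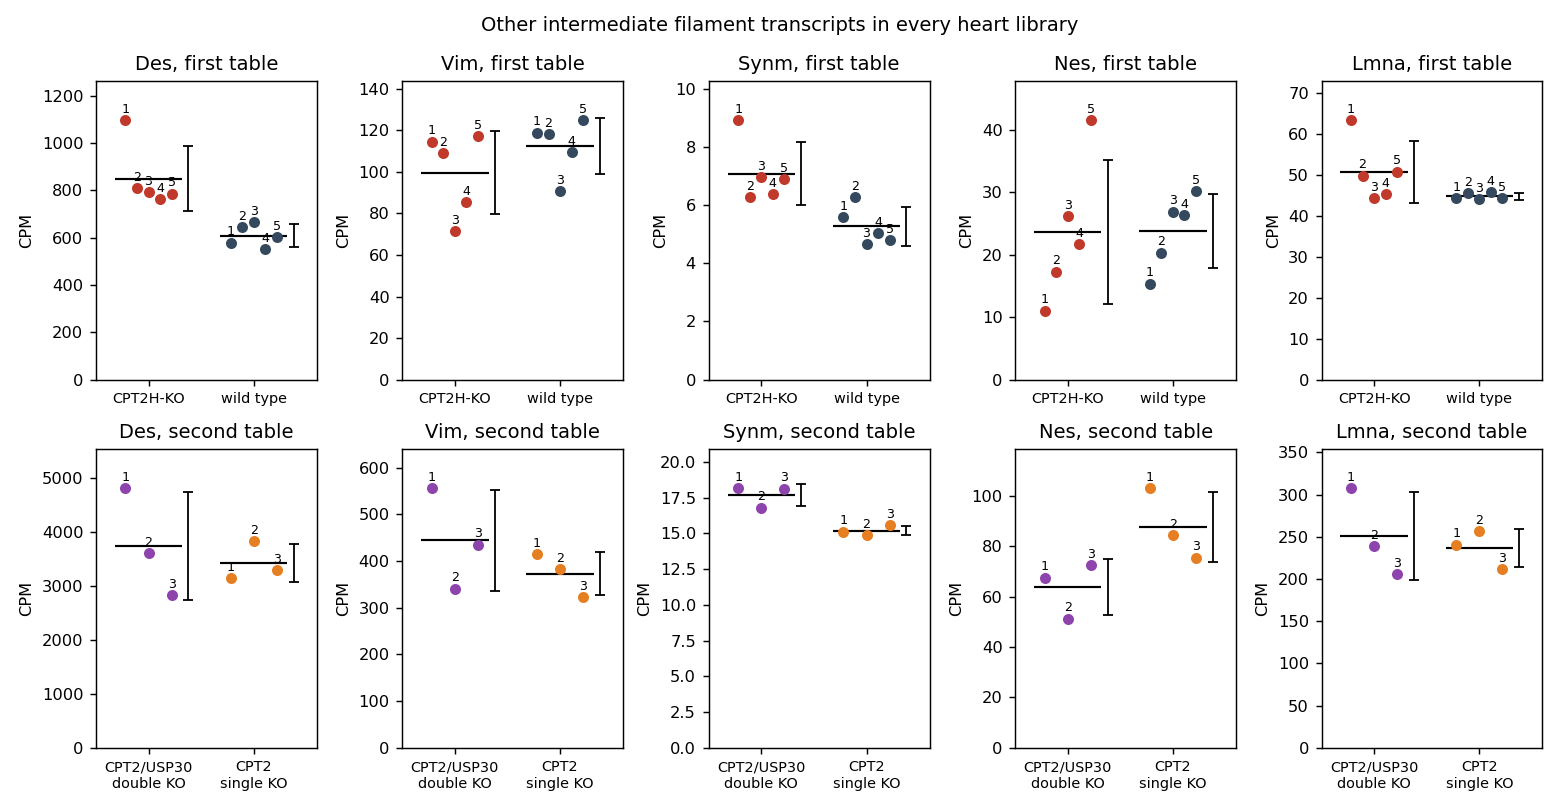
Level (CPM, axes from 0) of Des, Vim, Synm, Nes and Lmna in each library, numbered by replicate, with lines at group means and bars of 1 SD beside them. The upper row is the first table, where Des and Synm do not overlap between groups, and the lower row the second table, where Synm and Nes do not.

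Atrial markers differed between the second table's groups and stood beside these values. Their summed level was 42.5, 443 and 1713 CPM in double KO replicates 1 to 3 and 11.9 to 19.8 CPM in single KO hearts, with no overlap. With the mean log2 CPM of the atrial genes Myl7, Myl4 and Sln as a covariate, Krt8 had a log2 fold change of 2.38 (edgeR adjusted p = 0.0179) and Krt18 of 2.37 (edgeR adjusted p = 0.0203). Since the atrial sums separate the same 6 hearts by genotype, that covariate and genotype can be told apart only through the spread within groups. The keratins were called in this fit and in no other that was run.

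Libraries with much keratin 18 were also high for other transcripts. The myofibroblast list (Postn, Cthrc1, Comp, Cilp, Fap, Ltbp2 and Thbs4) summed to 557, 477, 127, 137 and 160 CPM in CPT2H-KO replicates 1 to 5 and to 58.0 to 95.5 CPM in wild type hearts. The cardiomyocyte stress list, 14 genes such as Acta1, Ankrd1 and Nppa that injured heart muscle expresses, summed to 9983, 6768, 4083, 4177 and 6149 CPM in CPT2H-KO replicates 1 to 5 and to 1983 to 2289 CPM in wild type hearts. The order of the 5 CPT2H-KO hearts was the same for Krt18 and for both sums. In the second table the stress list summed to 25000.4, 7730 and 9120 CPM in double KO replicates 1 to 3, against 10036, 17728 and 13423 CPM in single KO replicates 1 to 3, and the order of all 6 hearts was again that of Krt18. The myofibroblast sum was 1410.1, 182 and 260 CPM in double KO replicates 1 to 3, against 233, 562 and 284 CPM in single KO replicates 1 to 3. Their part in the keratin values was not tested. In CPT2H-KO replicate 1 Cpt2 was also at its lowest, 30.4 CPM.

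Cell types known for keratins 8 and 18 were looked for by their markers. Mesothelial markers (9 in the first table) summed to 10.6, 9.96, 12.9, 12.5 and 29.3 CPM in CPT2H-KO replicates 1 to 5, against 18.8, 16.2, 30.02, 25.5 and 13.3 CPM in wild type replicates 1 to 5. CPT2H-KO replicates 1 to 4, with the 2 hearts of most Krt18 among them, thus held less of these markers than any wild type heart. In the second table the sum was 25.9, 53.2 and 132.7 CPM in double KO replicates 1 to 3, against 32.9, 11.9 and 15.02 CPM in single KO replicates 1 to 3, and the 2 double KO hearts with the highest sums had the lowest Krt18 of all 6. Of the 8 epithelial markers only Krt19 is listed in the first table, at 0.119 to 0.637 CPM in CPT2H-KO and 0.0826 to 0.686 CPM in wild type hearts. In the second table the 7 epithelial markers listed summed to 2.74, 6.79 and 13.2 CPM in double KO replicates 1 to 3. Their sum was 2.44, 0.524 and 1.65 CPM in single KO replicates 1 to 3, with no overlap. The 2 that were tested, Krt7 (log2 fold change 2.34) and Krt19 (2.47), were above 0 and not called. Epcam had 2, 0 and 0 counts in double KO hearts and 0 in each single KO heart. Cdh1 had 3, 2 and 5 counts in double KO against 0, 0 and 2 counts in single KO replicates 1 to 3. Fibroblast markers summed to 1557 to 2471 CPM in CPT2H-KO and 1307 to 1850.4 CPM in wild type hearts, and endothelial markers to 441 to 582 CPM in CPT2H-KO and 377 to 481 CPM in wild type hearts. Mural cell markers, of cells around small vessels, summed to 546 to 646 CPM in CPT2H-KO and 723 to 806 CPM in wild type hearts, with no overlap, and their part in the values of Des, Vim and Nes was not tested.

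**Figure D4:**
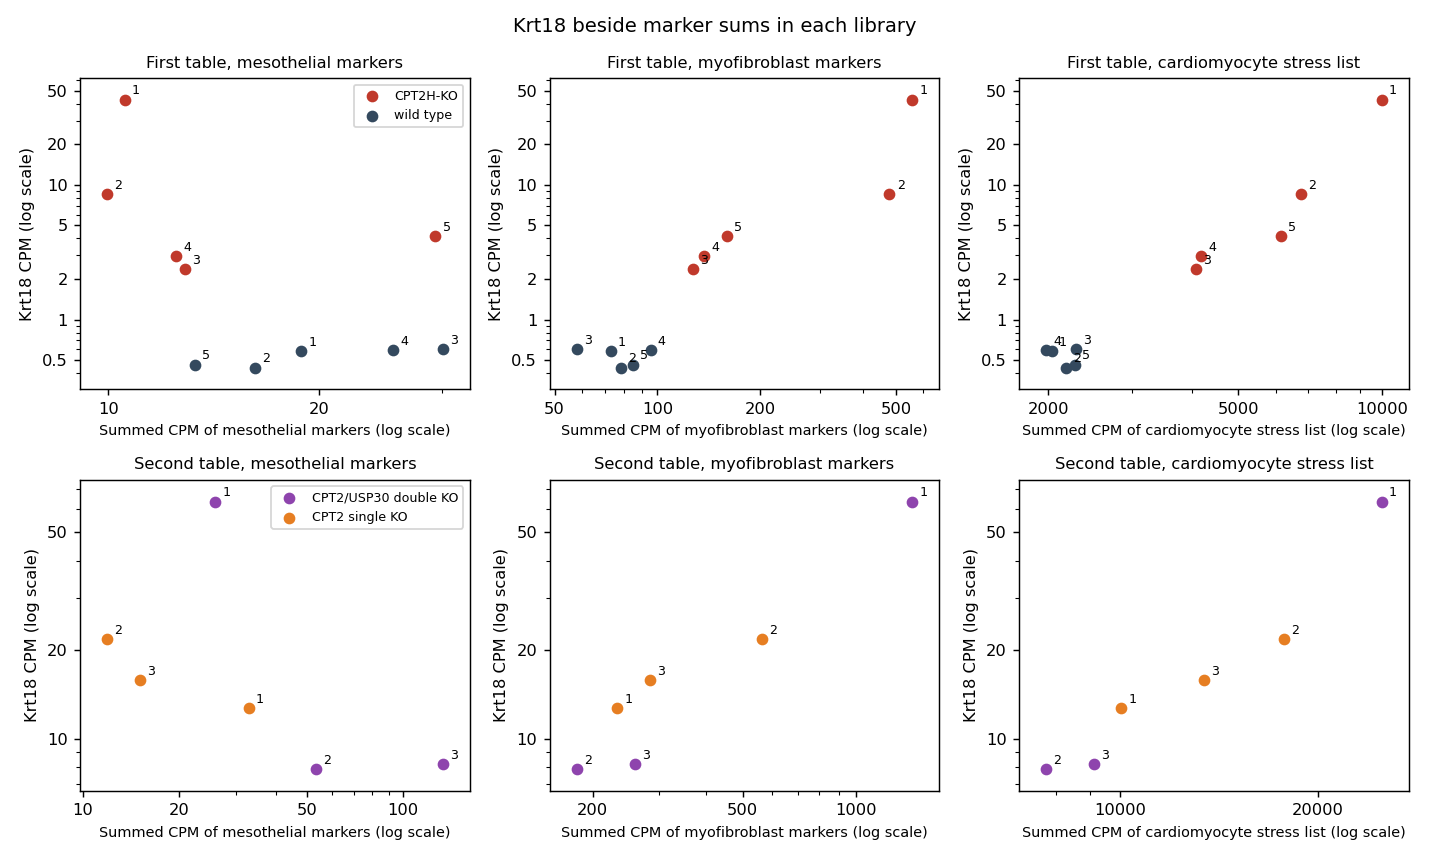
Krt18 (CPM) against the summed CPM of mesothelial markers, myofibroblast markers and the cardiomyocyte stress list in each library (all axes log), first table above and second below, points numbered by replicate. Replicate 1 of the CPT2H-KO and of the double KO hearts lies at the upper right in the myofibroblast and stress plots, while in the mesothelial plots the highest Krt18 stands at 10.6 and 25.9 CPM of markers.

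Among themselves, the 7 genes varied together in part. After the mean of each group was removed, the likeness of log2 CPM over the 16 libraries (Pearson r, a description) was 0.87 between Krt8 and Krt18, 0.88 between Krt18 and Lmna, 0.87 between Des and Lmna and 0.82 between Krt18 and Des. It was 0.60 between Krt18 and Vim (0.53 in the first table and 0.735 in the second). Between Krt18 and Nes it was -0.51, with -0.69 in the first table and 0.17 in the second, and between Vim and Nes it was -0.0050, with -0.19 in the first table and 0.79 in the second. In an alternative chosen after seeing the data, without replicate 1 of the CPT2H-KO and of the double KO hearts (14 libraries), r was 0.70 between Krt8 and Krt18, 0.46 between Krt18 and Lmna, 0.51 between Des and Lmna, 0.22 between Krt18 and Des, 0.41 between Krt18 and Vim and -0.30 between Krt18 and Nes. Each of these values was closer to 0 than over all 16 libraries, while r between Vim and Nes was 0.21, further from 0. The 2 libraries were left out because they stood apart for these genes, so lower values for the keratin pairs were partly fixed in advance. All of these values share library depth. The genes most like Krt18 among 12017 were Mif, a cytokine gene (0.97), Lox, which encodes the collagen cross-linking enzyme lysyl oxidase (0.97), Pak3, a kinase gene (0.96), Panx1, a membrane channel gene (0.96), and Psmd8, a proteasome subunit gene (0.95). Without those 2 libraries the values were 0.82 for Mif, 0.90 for Lox, 0.73 for Pak3, 0.82 for Panx1 and 0.86 for Psmd8. Lox stood at 65.6, 14.4, 4.29, 6.196 and 6.39 CPM in CPT2H-KO replicates 1 to 5 and at 2.89 to 3.61 CPM in wild type hearts. Those most like Krt8 were Sdf4 (0.95), Psmd8 (0.90), Gpr39 (0.89), Bet1l (0.89) and Tmbim1 (0.88). For Des they were Eif3h (0.92), Cdk5rap3 (0.92) and Akip1 (0.91), for Lmna Akip1 (0.95), Eif6 (0.94) and Dnpep (0.93), and for Vim Tmem158 (0.92), Tspan5 (0.90) and Spns2 (0.90). Synm came nearest to Sv2b (0.85), Cxxc4 (0.84) and Pik3r3 (0.82), and Nes was near Rgs16 (0.885) and Fam78b (0.87).

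**Figure D5:**
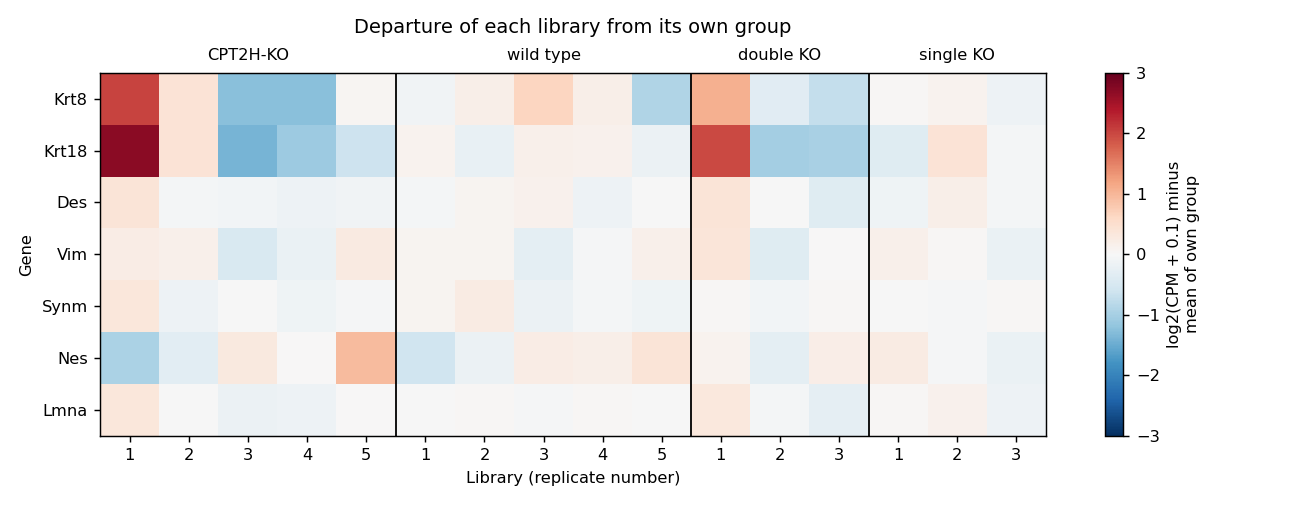
Departure of each library from the mean of its own group, as log2(CPM + 0.1), for each gene (rows) and library (columns, numbered by replicate). CPT2H-KO replicate 1 and double KO replicate 1 are the strongest red for both keratins, and Nes is blue in CPT2H-KO replicate 1.

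Of 21 other intermediate filament genes, 5 are listed in the first table, and 0 of them passed the test, where edgeR called 33.7% of all tested genes (16.7% higher and 17.0% lower). At an unadjusted edgeR p under 0.05 there was 1, Krt80, beside 44.5% of all genes, and DESeq2 called 1, also Krt80. Krt80, a type II epithelial keratin gene, stood at 4.51, 1.18, 0.854, 0.841 and 0.654 CPM in CPT2H-KO replicates 1 to 5 and at 0.381 to 0.706 CPM in wild type hearts (log2 fold change 1.35, SE 0.51, edgeR adjusted p = 0.0613). Its highest value was in the same heart as that of Krt18. Lmnb1 (0.56), Lmnb2 (0.10), Krt10 (-0.32) and Krt19 (-0.77) did not pass either. Leaving out CPT2H-KO replicate 5 gave 2 calls, Krt80 (1.56, edgeR adjusted p = 0.0338) and Krt19 (-1.59, edgeR adjusted p = 0.0308), leaving out replicate 3 gave Krt10 (-0.89, edgeR adjusted p = 0.0375) and leaving out replicate 1 gave Lmnb1 (0.71, edgeR adjusted p = 0.0354). In the second comparison 8 of 21 were tested and 0 passed by edgeR, DESeq2 or limma-voom. Its smallest p-values there were those of Krt7 (2.34, edgeR adjusted p = 0.350), Krt19 (2.47, edgeR adjusted p = 0.511) and Lmnb1 (-0.84, edgeR adjusted p = 0.524). Krt7 and Krt19, keratins of mesothelium and ducts, were highest in double KO replicate 3 (3.32 and 7.94 CPM), the heart with most mesothelial markers and not the heart with most Krt18.

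Of 11 plakin and desmosome genes, whose products tie filaments to membranes, 2 rose, 2 fell and 7 did not pass in CPT2H-KO hearts, beside 16.7% of all genes called higher and 17.0% called lower. Plec, which encodes plectin, the cytolinker that binds desmin to Z-discs and mitochondria, stood at 0.52 (SE 0.11, edgeR adjusted p = 0.00423), and Dst, for the related dystonin, at 0.51 (SE 0.09, edgeR adjusted p = 0.00136). Ppl, for periplakin of epithelial junctions, fell by 1.71 (edgeR adjusted p = 0.0114), and Ctnna3, for a catenin of the intercalated disc, fell by 0.40 on the log2 scale (edgeR adjusted p = 0.0141). The calls of Plec (0.25, edgeR adjusted p = 0.0914) and Dst (0.25, edgeR adjusted p = 0.0885) did not hold when library totals alone were used for scaling. Those of Plec (0.41, edgeR adjusted p = 0.0589), Ppl (-1.10, edgeR adjusted p = 0.0793) and Ctnna3 (edgeR adjusted p = 0.0881) were lost with the atrial covariate. Atrial markers summed to 75.3, 10.8, 4.96, 6.21 and 540.2 CPM in CPT2H-KO replicates 1 to 5 and to 67.3 to 619 CPM in wild type hearts.

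Of 16 costamere and Z-disc genes, 2 rose, 3 fell and 11 did not pass, beside the same 33.7% of all genes called. Flnc, for the Z-disc cross-linker filamin C, rose by 1.05 (SE 0.15, edgeR adjusted p = 5.77e-04). The sarcoglycan genes Sgca (-0.61) and Sgcd (-0.34) and the dystrobrevin gene Dtna (-0.59), all of the dystrophin complex, fell. These 4 calls held under every alternative run. Of 11 chaperone genes, 1 rose and 1 fell, a smaller share than the 33.7% of all genes. Hspb2, a small heat shock protein gene of muscle, fell by 0.81 (SE 0.07, edgeR adjusted p = 1.92e-05), though it overlaps Cryab on the opposite strand. Dnajb6, a co-chaperone gene, had a value of 0.36 (edgeR adjusted p = 0.0395) that did not pass when any 1 of the 5 wild type libraries was left out, with edgeR adjusted p from 0.0507 to 0.0846, nor with library totals alone (0.08, edgeR adjusted p = 0.566).

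Of 18 genes of the nuclear lamina and of the bridge from nucleus to cytoskeleton, other than Lmna, 1 rose, 6 fell and 11 did not pass, beside 16.7% of all genes called higher and 17.0% called lower, with a median log2 fold change of -0.11, beside -0.01 over all genes. Lbr, the lamin B receptor gene, fell by 0.38 (SE 0.07, edgeR adjusted p = 0.00195). Zmpste24 (-0.31) and Icmt (-0.29), which encode a protease and a methyltransferase that process prelamin A, and Sun1 (-0.28), a nuclear bridge gene, fell as well. With the atrial covariate 1 of the 7 calls, Lbr, was kept, and Zmpste24 (edgeR adjusted p = 0.063), Icmt (0.076) and Sun1 (0.0629) did not pass.

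Of 16 genes whose products modify or degrade filaments, 5 rose, 2 fell and 9 did not pass, beside 33.7% of all genes called. Ube2o, a ubiquitin-conjugating enzyme gene, stood at 0.53 (SE 0.11, edgeR adjusted p = 0.00340). Cdk5, a kinase gene, fell by 0.42 (SE 0.09, edgeR adjusted p = 0.00423). The call of Ube2o did not hold when library totals alone were used for scaling (0.26, edgeR adjusted p = 0.0725), nor with the atrial covariate (0.40, edgeR adjusted p = 0.0548). Further calls, named after their values were seen, were Trim54 (0.61), Ywhaz (0.31) and Rock1 (-0.27) here, Actn2 (0.35) among the costamere genes, and Banf1 (0.22), Sun2 (-0.23) and Tmpo (-0.35) among the lamina genes. With library totals alone the values of Actn2 (0.07), Banf1 (-0.04) and Ywhaz (0.04) did not pass, and the sign of Banf1 changed. With the atrial covariate Rock1 (edgeR adjusted p = 0.165), Actn2 (0.112), Tmpo (0.171), Banf1 (0.123) and Sun2 (0.0833) did not pass. Without wild type replicate 2, Rock1 (edgeR adjusted p = 0.0534), Tmpo (0.0523) and Banf1 (0.103) did not pass, nor Sun2 (0.0538) without wild type replicate 3. Tmpo and Banf1 were also lost without some other libraries. The call of Trim54 held under every alternative run. In the stress list 10 of 14 rose (8 to 11 over the alternatives) and 0 fell, beside 16.7% of all genes called higher. Its median was 1.56, with the smallest p-values at Gdf15 (5.31), Acta1 (2.95), Myc (2.58) and Flnc. This list and the others were chosen with earlier results of this comparison known. Their shares beside those of all genes are therefore a description and carry no test.

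In double against single KO hearts, 0 genes of these lists passed the edgeR test, with 12, 16, 11, 18, 16 and 14 genes tested in the plakin, costamere, chaperone, lamina, regulator and stress lists. Ppl, which fell in CPT2H-KO hearts, stood at 3.32, 16.1 and 14.7 CPM in double KO replicates 1 to 3, against 3.17, 0.898 and 2.11 CPM in single KO replicates 1 to 3. The change of Ppl was 2.47 on the log2 scale (SE 0.59, edgeR adjusted p = 0.309). DESeq2 called it (2.45, DESeq2 adjusted p = 0.00359), and without double KO replicate 1 edgeR did too (2.90, edgeR adjusted p = 0.00553). Ppl was not called by limma-voom (2.34, limma-voom adjusted p = 0.619) or with the replicate block (2.30, edgeR adjusted p = 0.496). With the atrial covariate its change was 0.47 (edgeR adjusted p = 0.703). Its highest values stood in the 2 hearts with most mesothelial and most atrial markers (443 and 1713 CPM of atrial markers). The part of the mesothelial markers was not tested. Trim32 (-0.51), for a ubiquitin ligase that acts on desmin filaments, and Hspa8 (-0.38), a chaperone gene, had edgeR adjusted p of 0.690 each.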

How the data were processed

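Total RNA of 16 mouse hearts was isolated with a PureLink kit, treated with DNase and made into TruSeq stranded libraries with Ribo-Zero, per the labels' protocols. Per the submitters' processing notes, bcl2fastq, HISAT2 and DESeq2 1.42.0 were used with mm10; the counter, gene annotation and use of strand are not stated in the labels or files used here. The deposited values are whole, unnormalised read counts by gene in 2 tables, and groups were compared only within a table. The first lists no gene with a total under 151 counts. In the second, 1 row lacking a gene name was dropped, and 25 symbols that had become dates were restored; 20 such symbols of the first table were not.

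Groups were read from the sample titles. Counts were filtered with filterByExpr (minimum count 10), scaled by TMM and tested with edgeR 4.0.16 (R 4.3.3) by the quasi-likelihood F test, with Benjamini-Hochberg adjustment over all tested genes and a threshold of 0.05. SE was taken as the fitted change over the root of F, and intervals use the test's degrees of freedom. CPM values use TMM-scaled totals; CPM per kilobase divides by the GENCODE M21 exon length (GRCm38, the mm10 assembly). The test was tested on simulated counts. Every pair of libraries of a group had a chi-square per degree of freedom of at least 10.7, so none was counted as 1 library deposited again. The labels call the libraries biological replicates without naming litters, so p-values cover only the spread among these libraries. Library depth limits Krt8 most, and counts carry counting error besides.

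The 7 genes and all lists were chosen with earlier results of these data known. Named were all 7, Cpt2 and Usp30 as label checks, up to 4 genes with the smallest p of each list and comparison, and the 5 (keratins) or 3 (others) genes of highest likeness, computed on log2 CPM with a prior count of 2; a few of these are left out of the text. Alternatives were other scalings, no filter, DESeq2, limma-voom (limma 3.58.1), a replicate block and an atrial covariate, each with all libraries. Each library was also left out in turn, without that covariate. Likeness and levels per kilobase without 2 libraries were chosen after seeing the data.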

Additional observations from a re-analysis of the deposited data

Results flagged for a closer look

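In CPM, 1 of the 5 CPT2H-KO libraries lay far from the other 4 for 4 of the 7 genes, each time replicate 1 and each time the highest. It held Krt8 at 4.66 CPM (next 1.46), Krt18 at 42.7 CPM (next 8.51), Des at 1098 CPM (next 811) and Synm at 8.93 CPM (next 6.96). The same library was highest for Krt80 at 4.51 CPM and Dnajb6 at 24.7 CPM, and lowest for Cpt2 at 30.4 CPM. These gaps were looked at in CPM only. By library totals alone Des was highest in CPT2H-KO replicate 2 (48995 of 54674422 counts), above replicate 1 (55564 of 62748001). Synm in replicate 1 (452 counts) then lay close to replicate 2 (379 counts).

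Other libraries stood apart for single genes of the lists. Krt10 was highest in CPT2H-KO replicate 3 (0.814 CPM), and Krt19 (0.637 CPM) and Ppl (2.22 CPM) were highest in CPT2H-KO replicate 5. Among wild type hearts Krt80 was lowest in replicate 2 (0.381 CPM), and Gdf15 (1.32 CPM) and Myc (2.46 CPM) were highest in replicate 5. A library counted as far from the others when its gap to the nearest was more than 0.71 of the range of the group of 5. This held in 13 of 70 groups looked at, 4 of them among the 14 groups of the 7 genes. For independent, normally spread values about 5% of groups would be flagged. These groups are genes of the same libraries, in CPM, so that share is not a fair yardstick for the 13.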

How the results depend on the processing

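For CPT2H-KO against wild type, edgeR called 4758 genes, 2360 higher and 2398 lower. Library totals alone called 5659 (827 higher, 4832 lower), the replicate block 4179, the atrial covariate 3103, and leaving out each library gave 3682 to 4787. Over all alternatives the log2 fold change of Krt18 ran from 3.05 to 5.54, Krt8 from 1.32 to 3.10, Des from 0.21 to 0.55 and Synm from 0.15 to 0.53. For double against single KO, 0 genes were called, against 123 by DESeq2, 64 with the atrial covariate, 1 with the replicate block and 0 to 114 with a library left out (114 without double KO replicate 1, 4 without single KO replicate 3). Of the 7 genes, 0 were called except with the atrial covariate, which called 2. There Krt18 changed sign with limma-voom (-0.038) and the replicate block (-0.028), and the cause was not tested. It ran from -1.06 to 1.09 with a library left out, Des from -0.093 to 0.29 and Lmna from -0.088 to 0.20, each lowest without double KO replicate 1. Replicate numbers were not taken to pair the samples. Deviations of same-numbered libraries correlated at -0.09 to 0.23 in the first table and -0.21 to 0.17 in the second. Those of differently numbered libraries correlated at -0.18 to 0.22 and -0.28 to 0.24. With so few hearts these values cannot decide whether the numbers mark pairs. Depth limits Krt8 most, with 19 to 236 counts in CPT2H-KO and 7 to 77 in wild type libraries.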
